A study of Mus musculus with 24 samples.

Results

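A set of 7 transcription factor genes of the nephron, the kidney's filtering unit with its tubule, is described here across mouse kidneys of both sexes at opposite times of day. The 7 genes, chosen by symbol, are the nuclear receptors Hnf4a (ENSMUSG00000017950), Hnf4g (ENSMUSG00000017688) and Nr1h4 (ENSMUSG00000047638), the repressor Bcl6 (ENSMUSG00000022508), the paired-box factors Pax2 (ENSMUSG00000004231) and Pax8 (ENSMUSG00000026976), and the AP-2 factor Tfap2b (ENSMUSG00000025927). They are 7 of 56748 gene identifiers, and all 7 were among the 17333 genes abundant enough to test (a mean of at least 10 normalized counts). RNA was taken from kidneys of active males, inactive males, active females and inactive females, with 6 libraries per group and 24 in all, where active and inactive name the middle of each daily period. No other treatment or allele is named, and strain, age and whether each library is a separate animal are not stated in the labels. The p-values therefore cover the spread among libraries, part of which may be technical.

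These factors act in different stretches of the nephron. HNF4A and its relative HNF4G bind DNA as receptors, and in the mouse kidney HNF4A is needed for the proximal tubule, which reabsorbs most of the filtrate, to mature. NR1H4, also called FXR, is the bile acid receptor and pairs with the retinoid X receptor RXRA. BCL6 is a zinc finger repressor that shares DNA sites with STAT5 and is known from lymphocytes and from male mouse liver. PAX2 and PAX8 establish the nephron lineage in the embryo and remain expressed in adult tubules, and TFAP2B, or AP-2 beta, is needed for the distal convoluted tubule to form.

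Windows of 250 bases before annotated start sites were searched for motifs of the clock and of the factors themselves. Those of Bcl6 and Nr1h4 are shown for the matches they hold, and those of Pax8 and Tfap2b because both genes differed by period in both sexes. The RefSeq promoter table, of build GRCm38.p6, held 6 of the 7 genes in 10 windows; Hnf4g had no entry. The 5 motifs searched on both strands were the clock E-box CACGTG, the D-box TTANGTAA of PAR bZIP factors, the nuclear receptor half-site AGGTCA, the STAT site TTCNNNGAA and the AP-2 site GCCNNNGGC. Capitals mark matches in the sequences below, which run 5′ to 3′ along the gene's strand. The first Bcl6 window is chr16:23988853-23989102, minus strand, and the second is chr16:23981284-23981533, minus strand. The Nr1h4 window is chr10:89506659-89506908, minus strand, the Pax8 window chr2:24475600-24475849, minus strand, and the Tfap2b window chr1:19211804-19212053, plus strand.
Bcl6 first window: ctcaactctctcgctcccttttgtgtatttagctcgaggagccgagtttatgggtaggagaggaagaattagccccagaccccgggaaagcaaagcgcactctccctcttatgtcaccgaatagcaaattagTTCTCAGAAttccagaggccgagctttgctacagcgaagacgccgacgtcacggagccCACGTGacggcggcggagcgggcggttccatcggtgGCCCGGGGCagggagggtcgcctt
Bcl6 second window: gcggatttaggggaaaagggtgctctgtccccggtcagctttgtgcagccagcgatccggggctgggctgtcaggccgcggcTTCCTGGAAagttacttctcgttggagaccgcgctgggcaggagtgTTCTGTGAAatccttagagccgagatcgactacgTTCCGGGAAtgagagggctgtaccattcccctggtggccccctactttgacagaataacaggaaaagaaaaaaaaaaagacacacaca
Nr1h4: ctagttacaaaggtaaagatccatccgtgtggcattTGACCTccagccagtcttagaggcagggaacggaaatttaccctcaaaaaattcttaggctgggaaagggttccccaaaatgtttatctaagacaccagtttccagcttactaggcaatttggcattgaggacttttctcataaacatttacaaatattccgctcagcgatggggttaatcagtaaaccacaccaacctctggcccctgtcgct
Pax8: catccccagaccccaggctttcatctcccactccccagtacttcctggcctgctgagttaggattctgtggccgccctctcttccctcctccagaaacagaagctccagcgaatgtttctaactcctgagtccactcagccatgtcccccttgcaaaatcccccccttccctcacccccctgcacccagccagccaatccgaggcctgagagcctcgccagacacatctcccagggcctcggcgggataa
Tfap2b: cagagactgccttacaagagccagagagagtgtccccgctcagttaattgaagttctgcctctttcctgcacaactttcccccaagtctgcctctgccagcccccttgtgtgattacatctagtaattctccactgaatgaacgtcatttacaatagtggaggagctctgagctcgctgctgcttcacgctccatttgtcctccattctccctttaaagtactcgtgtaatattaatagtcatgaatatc

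Bcl6 was the member with an E-box, which began at position -60 from its first start site. E-boxes were present in 6.02% of all 32851 windows in the table. The STAT site stood at -118 in the first Bcl6 window, and the second held 3 such matches, at -168, -122 and -88. One Pax2 window also held a STAT site, against 7.02% of all windows. The half-site was found in Nr1h4 at -214 on the opposite strand, where it reads TGACCT, against 14% of all windows. AP-2 sites were found in Bcl6 at -24, where no other motif overlapped it, and in a Pax2 window, against 13.7% of all windows. The D-box was in 2.06% of all windows and in no member's, and the Pax8 and Tfap2b windows above held none of the 5 motifs. A match describes these letters and does not show that a factor binds.

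Depth was even across the groups, at 31 to 39.3 M recovered reads per library. The clock genes placed each library with its labelled period: Arntl, the clock activator, was at 405 to 1336 normalized counts in active kidneys and at 36.2 to 164 in inactive kidneys. Markers of every nephron segment were abundant. The 10 adrenal cortex markers summed to 2837 to 3729 normalized counts in males and 1941 to 2458 in females. Most of this sum was Fdx1, which averaged 2811 in active males, 2593 in inactive males, 1487 in active females and 1697 in inactive females. Cyp11b1, Cyp11b2 and Nr5a1 were under 3 counts in every library. The 10 adipose tissue markers summed to 1966 to 5088 over all libraries, with group means of 1642 to 2447 for Pnpla2 alone. Adipoq ranged from 4.42 to 222 in active males and from 22 to 522 in active females. The part of adrenal and adipose tissue in the results was not tested. The libraries are whole-kidney RNA, so fewer cells of a type and less RNA per cell cannot be told apart in any result below.

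All members but Pax2 differed between periods in males. Hnf4a, Bcl6 and Pax8 were higher in active males, and Hnf4g, Nr1h4 and Tfap2b were lower. The 6 of 7 calls (limma, Benjamini-Hochberg adjusted p under 0.05), 3 in each direction, stand beside 15.4% of all tested genes called in that comparison, 8.43% higher and 6.95% lower. The members were chosen with earlier results of these data known, so their counts beside all genes are no test of the set. In females 3 of 7 were called, Pax8 higher and Hnf4g and Tfap2b lower in the active period, beside 15% of tested genes, 7.97% higher and 6.98% lower. Between the sexes 6 of 7 were called in each period, 4 higher and 2 lower in males each time. In the active period 60.6% of tested genes were called, 30.1% higher and 30.5% lower, and in the inactive period 55.7%, 27.9% higher and 27.8% lower, so a sex difference was common among all genes.

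**Figure D1:**
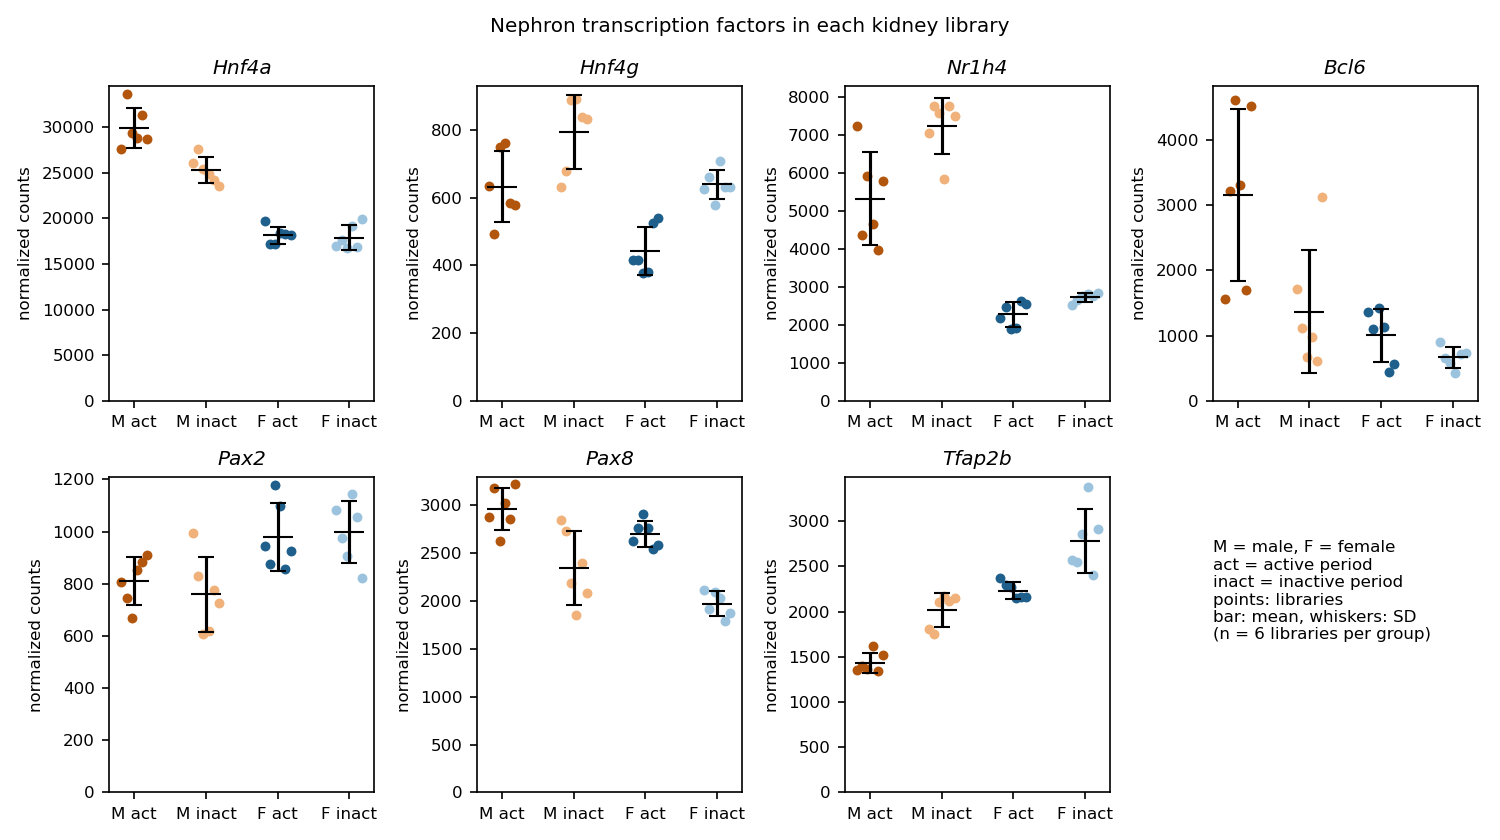
Normalized counts (y axis, from 0) of the 7 genes in every library, in active males, inactive males, active females and inactive females (x axis), where each point is a library, bars are means and whiskers SD (n = 6). Hnf4a and Nr1h4 lie higher in all male libraries than in all female ones, and Tfap2b is lowest in active males. By sex, 36.3% of tested genes did not overlap in the active and 32.3% in the inactive period.

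Hnf4a was the most abundant of the 7 genes and was higher in males. It ranged from 27535 through a median of 29057 to 33613 normalized counts in active males, and from 23500 through 25129 to 27627 in inactive males. In active females it ranged from 17214 through 18181 to 19722, and in inactive females from 16707 through 17306 to 19940. With the authors' size factors, every male library lay above every female library in both periods. By sex, 36.3% of tested genes did not overlap in the active period and 32.3% in the inactive period. The periods of Hnf4a overlapped within each sex, in males by the lowest active library alone. Active males exceeded active females 1.64-fold (log2 difference 0.72 ± 0.05 SE, adjusted p = 1.48e-12, limma), and the log2 difference was 0.50 ± 0.05 in the inactive period (adjusted p = 3.83e-09).

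The period difference of Hnf4a was called in males (log2 0.24 ± 0.05, adjusted p = 0.00325) and not in females (log2 0.02 ± 0.05, adjusted p = 0.828). The direct test of whether the male change exceeded the female change gave 0.22 ± 0.08 on the log2 scale, with an unadjusted p of 0.00844 and an adjusted p of 0.113. That difference between the sexes therefore did not pass. No member passed this interaction test in limma, edgeR or DESeq2, beside 2.71% of all tested genes by limma, 1.41% higher and 1.3% lower, and Hnf4a was the 1 member with an unadjusted p under 0.05.

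Hnf4g, the less abundant HNF4 gene, was lower in the active period in both sexes. It ranged from 493 through a median of 609 to 761 normalized counts in active males, and from 632 through 834 to 890 in inactive males. It ranged from 379 through 416 to 539 in active females, and from 579 through 631 to 707 in inactive females. All active female libraries lay below all inactive female ones, beside 7.83% of tested genes without overlap in females, whereas the male periods overlapped. The log2 change was -0.54 ± 0.11 in females (adjusted p = 0.000534) and -0.33 ± 0.11 in males (adjusted p = 0.0329).

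The male call of Hnf4g was close to the threshold. It was lost in 7 of the 24 analyses that left 1 library out, with adjusted p for Hnf4g from 0.0685 to 0.106. These were the analyses without male active replicate 26, 29 or 30 or male inactive replicate 33, 34, 35 or 36, all of them libraries of this comparison. Over all 24 the log2 change stayed from -0.39 to -0.26. Males exceeded females in the active period (log2 0.51 ± 0.11, adjusted p = 0.00012). In the inactive period the difference was 0.30 ± 0.11 (adjusted p = 0.017), but 0.02 (adjusted p = 0.868) when libraries were scaled to equal totals.

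The balance of the 2 HNF4 genes can be read within each library, where no scaling between libraries enters. Per exon length, Hnf4a exceeded Hnf4g 26.5 ± 6.16-fold in active males and 17.7 ± 3.51-fold in inactive males (SD, n = 6). The ratio was 22.8 ± 3.48 in active females and 15.2 ± 1.08 in inactive females. The lowest active female ratio, 18.3, lay above the highest inactive female ratio, 17.2, and the male ranges, 20.6 to 37.1 in the active and 15.2 to 22.4 in the inactive period, overlapped. No test was run on these ratios.

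Of 13 HNF4 partners and coactivators, all tested, 1 was higher and 2 lower in active against inactive males, and 1 was higher and 1 lower in females. The list's median log2 change was -0.02 in males and 0.10 in females. Nr2f6, an orphan nuclear receptor, was the higher one in males (log2 0.69 ± 0.11, adjusted p = 9.1e-05) and in females (log2 0.33 ± 0.11, adjusted p = 0.0449). The coactivator Ppargc1b was lower in males (log2 -0.56 ± 0.13, adjusted p = 0.00487) and in females (log2 -0.55 ± 0.13, adjusted p = 0.00427). Between active males and active females 3 were higher and 6 lower, with a median log2 difference of -0.15 beside -0.05 for all genes. Rxra was higher in males (log2 0.49 ± 0.05, adjusted p = 1.1e-09) and the coactivator Ppargc1a lower (log2 -0.70 ± 0.06, adjusted p = 2e-11).

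Of 23 tested proximal tubule genes listed as HNF4 dependent, 13 were higher and 5 lower in active males than in active females. Their median log2 difference was 0.53, beside -0.05 for all genes, and with equal totals it was 0.26 with 12 higher and 7 lower. The inactive period gave 13 higher and 5 lower with a median of 0.28, which became 0.00 with 10 higher and 7 lower with equal totals. The sodium-phosphate transporter family member Slc17a1 (log2 1.21 ± 0.07, adjusted p = 1.31e-14), the drug and toxin extruder Slc47a1 (log2 0.76 ± 0.05, adjusted p = 1.59e-14) and Ttc36 (log2 1.68 ± 0.10, adjusted p = 4.91e-14) had the smallest p in the active period. The members that were lower included Slc5a12, a lactate transporter (log2 -1.07 ± 0.11, adjusted p = 1.41e-08), named after its value was seen.

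Across periods the same list was mixed: 4 of 23 were higher and 2 lower in active males, and 2 were higher and 3 lower in active females, with medians of 0.10 and -0.06. G6pc, the phosphatase that releases glucose, was higher in the active period in males (log2 0.75 ± 0.17, adjusted p = 0.00688) and in females (log2 1.24 ± 0.17, adjusted p = 3.86e-05). For 3 genes the signed male change was above the female change, beside 1.41% of all genes called in that direction. They were Ttc36 (difference 0.62 ± 0.14, adjusted p = 0.0145), the phosphate transporter Slc34a1 (0.35 ± 0.09, adjusted p = 0.0228) and the dipeptidase Dpep1 (0.28 ± 0.08, adjusted p = 0.0417). Each was above 0 in males and below 0 in females. The log2 changes were 0.32 and -0.30 for Ttc36, both called. They were 0.12 and -0.24 for Slc34a1, called in females alone, and 0.15 and -0.12 for Dpep1, called in males alone. Markers of the last proximal segment, S3, summed to 311020 to 376939 normalized counts in males and 136494 to 185417 in females, with 6 of 10 higher and 3 lower in active males than in active females. Those of the earlier segments summed to 322126 to 380068 in males and 268536 to 360221 in females, with 3 of 13 higher and 5 lower in the active period. Their part in the sex differences of Hnf4a, Hnf4g and Nr1h4 was not tested.

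Nr1h4, the bile acid receptor, was over 2-fold more abundant in males with the authors' size factors. It ranged from 3959 through a median of 5223 to 7224 normalized counts in active males, and from 5827 through 7523 to 7761 in inactive males. It ranged from 1884 through 2333 to 2634 in active females, and from 2533 through 2758 to 2826 in inactive females. The lowest male library, at 3959, lay above the highest female one, at 2826. By sex, 36.3% of tested genes did not overlap in the active and 32.3% in the inactive period. The male-to-female ratio was 2.31-fold in the active period (log2 1.21 ± 0.12, adjusted p = 5.08e-09) and 2.64-fold in the inactive period (log2 1.40 ± 0.12, adjusted p = 5.49e-10).

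Nr1h4 was lower in active than in inactive males (log2 -0.47 ± 0.12, adjusted p = 0.00899), although the groups overlapped. Male active replicates 25, at 7224, and 27, at 5914, stood within the inactive range, while their Arntl counts, 659 and 698, were those of active kidneys. In females the change was -0.27 ± 0.12 (adjusted p = 0.126), which did not pass in the fit of all groups and passed when the female groups were fitted alone (adjusted p = 0.0221).

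Of 16 genes in a list of bile acid and FXR target genes 12 were abundant enough to test. It also holds the partner gene Rxrb and the receptor gene Fgfr4, so not every entry is an FXR target. In active males 3 of the 12 were higher than in inactive males and none was lower. These were Slc51b, a subunit of the bile acid exporter (log2 0.58 ± 0.10, adjusted p = 0.000174), Fgfr4, the receptor of the bile acid hormone FGF15 (log2 0.37 ± 0.07, adjusted p = 0.00031), and Rxrb, a partner of FXR (log2 0.19 ± 0.06, adjusted p = 0.0391). In females 1 was higher and 1 lower, and the list's median was 0.15 in males and 0.05 in females. Nr0b2, the repressor that FXR induces in liver, was at 31.2 ± 8.2 in active males, 37.8 ± 8.01 in inactive males, 41.5 ± 12.1 in active females and 38.7 ± 9.14 in inactive females (SD, n = 6), and it was called in no comparison.

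Between active males and females 6 of the 12 were higher and 4 lower, which turned to 5 higher and 6 lower with equal totals. The exporters Abcc3 (log2 -4.65 ± 0.19, adjusted p = 5.33e-16) and Abcc4 (log2 -1.75 ± 0.10, adjusted p = 4.74e-14), which carry organic anions, were lower in males, and Fgfr4 was higher (log2 0.72 ± 0.07, adjusted p = 9.1e-11). The list's median was 0.20 in the active and 0.02 in the inactive period, beside -0.05 and -0.04 for all genes.

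Bcl6 had the widest spread of the 7 genes and the largest fold between active males and active females. It ranged from 1559 through a median of 3258 to 4614 normalized counts in active males, and from 604 through 1043 to 3122 in inactive males. It ranged from 446 through 1117 to 1423 in active females, and from 425 through 687 to 902 in inactive females. All active male libraries lay above all active female ones, beside 36.3% of tested genes without overlap, and the other neighbouring groups overlapped. The coefficient of variation was 41.8% in active males, 69.2% in inactive males, 40.8% in active females and 24.1% in inactive females.

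Active males exceeded active females 3.15-fold in Bcl6 (log2 1.65 ± 0.39, adjusted p = 0.00109). In the inactive period the difference was 0.83 ± 0.39 (adjusted p = 0.0797), which edgeR (adjusted p = 0.0338) and DESeq2 (adjusted p = 0.0164) called. Bcl6 was higher in active than in inactive males (log2 1.32 ± 0.39, adjusted p = 0.027), and the female change was 0.50 ± 0.39 (adjusted p = 0.459). The male period call was lost, with adjusted p from 0.0544 to 0.0717, in 6 of the 24 analyses that left a library out: male active replicate 26, 27 or 30 or male inactive replicate 33, 34 or 35.

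The highest inactive male library, replicate 36 at 3122, had clock values of an inactive kidney (Dbp, a clock-controlled factor, at 1694). The lowest active male library, replicate 25 at 1559, was the one in which Nr1h4 was highest, though Bcl6 and Nr1h4 had r of 0.03 over the active male libraries. BCL6 is also made by B cells and follicular T cells. The 10 B cell markers together summed to 106 to 169 normalized counts in active males, 170 to 261 in inactive males, 171 to 264 in active females and 195 to 357 in inactive females. The 10 T cell markers summed to 167 to 257 in active males, 137 to 247 in inactive males, 261 to 481 in active females and 236 to 409 in inactive females. Their part in Bcl6 was not tested.

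A list of targets shared by STAT5 and BCL6 had 17 tested genes. It also holds the STAT5 genes Stat5a and Stat5b and the receptor genes Ghr and Prlr, so not every entry is a shared target. Of the 17, 2 were higher and 10 lower in active males than in active females. The median log2 difference was -0.50 beside -0.05 for all genes. In the inactive period 1 was higher and 9 lower, with a median of -0.39. The prolactin receptor gene Prlr averaged 285 ± 175 in active males and 11342 ± 2862 in active females (SD, n = 6; log2 -5.49 ± 0.37, adjusted p = 4.58e-11). The cell cycle inhibitors Cdkn1b (log2 -0.37 ± 0.06, adjusted p = 1.82e-06) and Cdkn1a (log2 -1.0 ± 0.17, adjusted p = 9.21e-06) were lower in males too. Across periods 1 was higher and 3 lower in active males, and 1 was higher and 1 lower in active females, with medians of 0.01 and -0.08. The insulin signalling adaptor Irs2 (log2 -1.10 ± 0.31, adjusted p = 0.0219) and Cdkn1b (log2 -0.19 ± 0.06, adjusted p = 0.025) were lower in active males, and the growth factor gene Myc was higher (log2 0.80 ± 0.25, adjusted p = 0.0321). The remaining one was the STAT5 feedback inhibitor Cish (log2 -1.18 ± 0.38, adjusted p = 0.0408), named after its value was seen.

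Of 12 genes for BCL6 corepressors, 2 were higher and 2 lower in the active period in each sex, with a median log2 change of 0.07 in males and 0.01 in females. The corepressor gene Ncor1 was higher in females (log2 0.30 ± 0.05, adjusted p = 1.88e-05). The deacetylase gene Hdac5 was lower in males (log2 -0.20 ± 0.06, adjusted p = 0.0268) and in females (log2 -0.36 ± 0.06, adjusted p = 0.000105). The partner Bcor did not pass by period in males (log2 0.11 ± 0.09, adjusted p = 0.443) or in females (log2 0.01 ± 0.09, adjusted p = 0.975). By sex 4 were higher and 4 lower in the active period, which became 3 higher and 8 lower with equal totals.

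**Figure D2:**
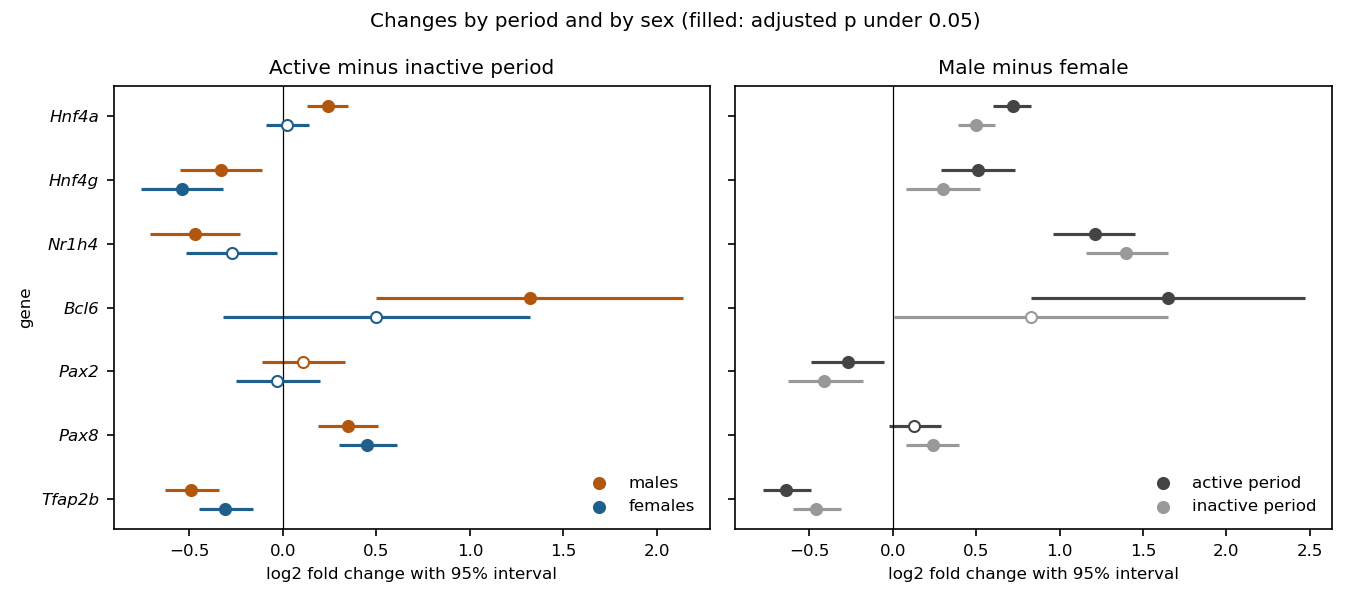
Log2 fold change (x axis) of the 7 genes (y axis), active minus inactive in males and females on the left and male minus female in each period on the right, with 95% intervals not adjusted for the number of genes and filled symbols for an adjusted p under 0.05. Hnf4g and Tfap2b fall and Pax8 rises in the active period in both sexes, and Bcl6 has the widest intervals.

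Pax8, the more abundant of the paired-box pair, was higher in the active period in both sexes. It ranged from 2632 through a median of 2953 to 3220 normalized counts in active males, and from 1853 through 2290 to 2842 in inactive males. It ranged from 2542 through 2696 to 2906 in active females, and from 1795 through 1979 to 2113 in inactive females. The female periods did not overlap, beside 7.83% of tested genes without overlap in females, and the male periods did. The log2 change was 0.45 ± 0.08 in females (adjusted p = 8.32e-05) and 0.35 ± 0.08 in males (adjusted p = 0.00237).

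By sex Pax8 depended on the scaling. In the active period the male-minus-female log2 difference was 0.13 ± 0.08 (adjusted p = 0.127) and turned to -0.14 with equal totals. In the inactive period it was 0.24 ± 0.08 (adjusted p = 0.00873) and turned to -0.04 with equal totals. The annotation places an RNA of the opposite strand, Gm13415, over 367 of the 6061 exon bases of Pax8, and another, Gm37419, over 21 of those of Bcl6, and whether the counting used strand is not stated in the labels.

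Pax2 was called by sex and not by period. It ranged from 668 through a median of 830 to 912 normalized counts in active males, and from 608 through 751 to 996 in inactive males. It ranged from 856 through 935 to 1179 in active females, and from 824 through 1017 to 1146 in inactive females. All 4 ranges overlapped their neighbours. Males were lower in the inactive period (log2 -0.41 ± 0.11, adjusted p = 0.00209) and in the active period (log2 -0.27 ± 0.11, adjusted p = 0.0321). The active call was lost, with adjusted p from 0.0698 to 0.0928, without male active replicate 26 or 27 or female active replicate 27 or 28. The period changes were 0.11 ± 0.11 in males (adjusted p = 0.53) and -0.03 ± 0.11 in females (adjusted p = 0.906).

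Within libraries the ratio of Pax8 to Pax2 per exon length was 3.28 ± 0.325 in active males, 2.78 ± 0.256 in inactive males, 2.48 ± 0.239 in active females and 1.78 ± 0.226 in inactive females (SD, n = 6). Its lowest active female value, 2.20, lay above the highest inactive female value, 2.07. Male and female ranges did not overlap at either time: 2.88 to 3.81 in active males against 2.20 to 2.83 in active females, and 2.55 to 3.21 in inactive males against 1.51 to 2.07 in inactive females. Scaling between libraries does not enter these ratios. Once group means were taken out, Pax2 and Pax8 varied together over the 24 libraries, with r of 0.68, and within the groups r was 0.57 in active males, 0.88 in inactive males, 0.77 in active females and 0.22 in inactive females. These libraries share their scaling, and no test was made of it.

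Of 20 listed PAX2 and PAX8 partners and targets 17 were tested. In active males 2 were higher and 1 lower than in inactive males, namely the urea transporter Slc14a2 (log2 0.62 ± 0.14, adjusted p = 0.00604), kidney cadherin Cdh16 (log2 0.15 ± 0.05, adjusted p = 0.0267) and the homeobox gene Six4 (log2 -0.47 ± 0.13, adjusted p = 0.0157). In active females 2 were higher and 2 lower, with the smallest p in the water channel Aqp3 (log2 -0.49 ± 0.07, adjusted p = 5.31e-06). The medians were -0.05 in males and -0.04 in females. Paxip1, whose product binds PAX2, was at 766 ± 85.2 in active males, 807 ± 70.2 in inactive males, 758 ± 49.7 in active females and 798 ± 76.1 in inactive females, and was not called in any comparison. Between active males and females 5 were higher and 9 lower, with a median of -0.40, and 0 and 10 with equal totals. Wt1, a factor of podocytes (log2 -1.06 ± 0.09, adjusted p = 3.8e-11), and Sall1 (log2 -0.84 ± 0.11, adjusted p = 4.66e-07) were among those lower.

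Other genes of the PAX family were scarce, and the 2 tested of 7, Pax6 and Pax9, were called in no comparison. Markers of the connecting tubule and the principal cells of the collecting duct, where PAX2 and PAX8 are found, were also measured. They summed to 45473 to 49230 normalized counts in active males, 33379 to 42047 in inactive males, 53152 to 63171 in active females and 48080 to 61868 in inactive females. In active males 5 of these 12 markers were higher and none lower, and in active females 2 were higher and 3 lower, each against the inactive period. Between males and females 3 were higher and 7 lower in the active period. Their part in the change of Pax8 was not tested.

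Tfap2b was lower in the active period and lower in males. It ranged from 1348 through a median of 1383 to 1620 normalized counts in active males, and from 1752 through 2110 to 2179 in inactive males. It ranged from 2148 through 2214 to 2372 in active females, and from 2405 through 2712 to 3382 in inactive females. In both sexes all active libraries lay below all inactive ones, beside 4.29% of tested genes without overlap in males and 7.83% in females. Each period's male libraries also lay below its female ones, beside 36.3% of tested genes in the active and 32.3% in the inactive period.

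The log2 period change of Tfap2b was -0.49 ± 0.07 in males (adjusted p = 1.89e-05) and -0.31 ± 0.07 in females (adjusted p = 0.00229). The male-minus-female difference was -0.64 ± 0.07 in the active period (adjusted p = 3.21e-09) and -0.46 ± 0.07 in the inactive period (adjusted p = 1.76e-06). The interaction did not pass (-0.18 ± 0.10, adjusted p = 0.32).

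Markers of the distal convoluted tubule, whose formation needs AP-2 beta in the mouse, summed to 64427 to 71214 normalized counts in active males and 61880 to 71923 in inactive males. They summed to 93662 to 110440.0 in active females and 90276 to 108350.0 in inactive females. By period 2 of these 10 markers were higher and none lower in active males, and 1 was higher and 2 lower in active females. Between active males and females 1 was higher and 6 lower. The thiazide-sensitive sodium chloride transporter Slc12a3, the defining marker, was at 36691 ± 1826 in active males, 37822 ± 2712 in inactive males, 61715 ± 4647 in active females and 61493 ± 4278 in inactive females. It passed by sex (log2 -0.75 ± 0.06 in the active period, adjusted p = 1.36e-12) and not by period (adjusted p = 0.658 in males and 0.972 in females). The part of these markers in the period and sex differences of Tfap2b was not tested.

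Of 12 genes in a list of the AP-2 family and its cofactors 8 were tested. Among these are Tfap4, Crebbp and Ep300, which are not AP-2, KCTD or CITED genes. None of the 8 was called by period in males with limma. In females Kctd1, which encodes an inhibitor of AP-2 factors, was higher in the active period (log2 0.26 ± 0.08, adjusted p = 0.0287). The medians were 0.05 in males and 0.13 in females. Between active males and females 2 were higher and 3 lower, and none and 5 with equal totals. Kctd1 was lower in males (log2 -0.53 ± 0.08, adjusted p = 1.71e-06), as was Tfap2a, the related AP-2 alpha gene (log2 -0.41 ± 0.10, adjusted p = 0.00115), while Kctd15 was higher (log2 0.36 ± 0.10, adjusted p = 0.0031). The AP-2 coactivator genes Cited2 and Cited4 were not called by period, and Cited4 was higher in active males than in active females (log2 0.74 ± 0.29, adjusted p = 0.0295).

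Levels were compared between genes per exon length, in TPM, the length-scaled share of a library, computed here from the normalized counts. These levels are shares, so they are read between genes and not between groups. Hnf4a stood first and Nr1h4 second in every group, with no overlap: 389 and 147 in active males, 336 and 202 in inactive males, 315 and 82.4 in active females, and 313 and 100 in inactive females. Below them, in active males, Pax8 at 30.8, Bcl6 at 29.6, Hnf4g at 15.2 and Tfap2b at 14.3 each overlapped the next, with Pax2 last at 9.48. In inactive females the order was Tfap2b at 37.1, Pax8 at 27.6, Hnf4g at 20.6, Pax2 at 15.6 and Bcl6 at 8.45, with no neighbours overlapping. In inactive males Pax8 (24.9), Tfap2b (20.4), Hnf4g (19.3), Bcl6 (13.1) and Pax2 (9.04) each overlapped the next. In active females Pax8 (37.4), Tfap2b (29.5) and Pax2 (15.3) were separate, and Pax2, Hnf4g (14.1) and Bcl6 (12.6) overlapped.

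The sex differences rest on how libraries are scaled. With equal totals the median of all genes shifted by -0.275 in the active and -0.279 in the inactive period on the log2 scale, and 23% and 18.5% of called genes were higher in males, beside 49.7% and 50.1% with the authors' size factors. The size factors ran from 0.828 to 1.03 in males and from 0.99 to 1.28 in females. By sex, the other 6 members kept their direction under every scaling tried, while Pax8 reversed with equal totals. Over all alternatives the male-minus-female log2 difference of Hnf4a was as low as 0.44 in the active and 0.22 in the inactive period. For Nr1h4 it was as low as 0.93 and 1.12, and for Hnf4g 0.24 in the active period. These calls were kept. For the period the median shifted by less, by -0.0278 in males and -0.0325 in females.

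**Figure D3:**
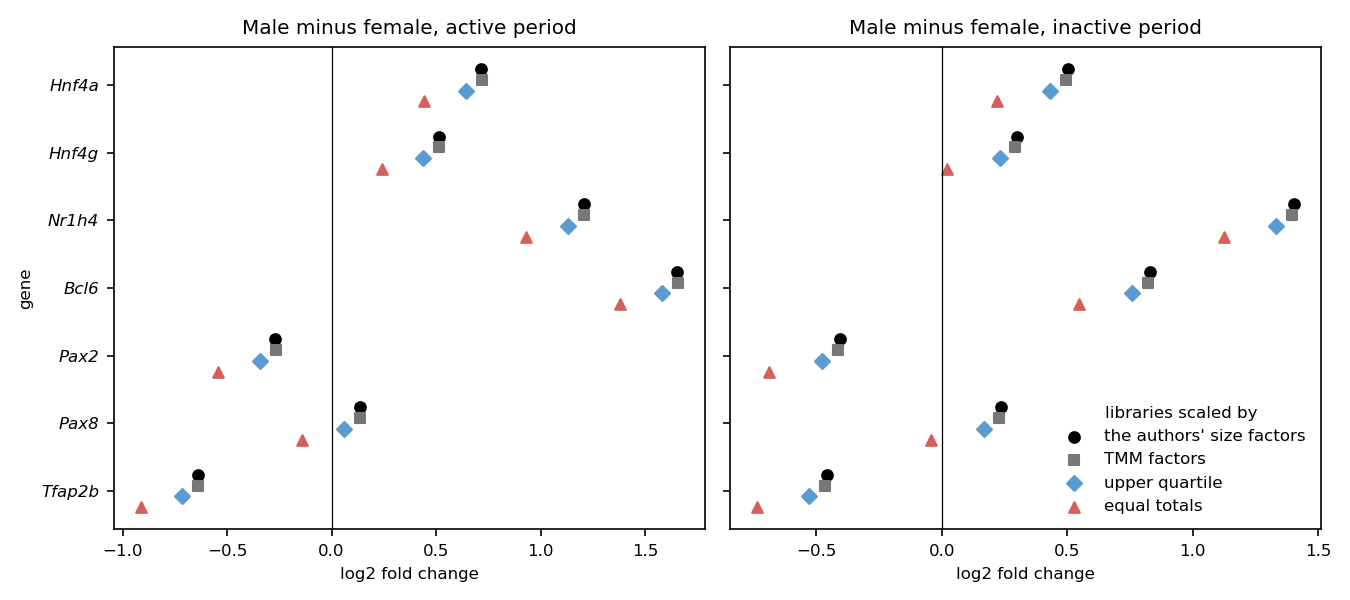
Male-minus-female log2 fold change (x axis) of the 7 genes (y axis) in the active and inactive periods, with libraries scaled by the authors' size factors, TMM factors, the upper quartile or equal totals (symbols). Equal totals move all 7 genes to lower values, and Pax8 crosses 0 in both periods.

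A wider list of 48 other transcription factors of nephron segments, of which 47 were tested, gives these members a setting. In active males 4 were higher and 9 lower than in inactive males, and in active females 5 were higher and 6 lower. The list's medians were -0.01 and -0.05, beside 0.02 and 0.00 for all genes. Ppara, the fatty acid receptor (log2 -0.57 ± 0.11, adjusted p = 0.000843), and Glis3 (log2 -0.30 ± 0.06, adjusted p = 0.000922) were lower in active males. In females Pou3f3, a factor of the loop of Henle, was lower (log2 -0.34 ± 0.05, adjusted p = 2.25e-05), Ppara was lower (log2 -0.54 ± 0.11, adjusted p = 0.000803) and the homeobox gene Hoxd8 higher (log2 0.37 ± 0.06, adjusted p = 2.43e-05).

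Of the 47, 3 passed the interaction test, or 6.38%, beside 2.71% of all tested genes. Among them the signed change of Hoxd10 was lower in males than in females (difference -0.51 ± 0.13, adjusted p = 0.0249), and that of the homeobox gene Emx1 was higher (0.49 ± 0.11, adjusted p = 0.0179). For Emx1 the log2 change was 0.23 in males, which was not called, and -0.26 in females, which was. Between active males and females 10 were higher and 24 lower, with a median of -0.21, and 4 and 29 with equal totals. The inactive period gave 10 higher and 22 lower. Irx1, a homeobox factor of the nephron, was higher in males (log2 1.28 ± 0.09, adjusted p = 4.26e-13), and Sim1 (log2 -1.17 ± 0.09, adjusted p = 4.64e-12) and Wt1 were lower. Podocyte markers were lower in active males in 10 of 10 genes, intercalated cell markers in 8 of 10 and endothelial markers in 9 of 10, and their part in these counts was not tested.

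Each member was also set against 12493 other tested genes with a mean of at least 50, by Pearson's r of log2 values over the 24 libraries. Since the libraries form 4 groups, r within groups, with group means taken out, is given as well. Hnf4a was most like Tmem14c, Mlf2 and Eif5a, all with r of 0.98 and with 0.70, 0.78 and 0.66 within groups. Hnf4g was most like Rnf141 (0.91, within groups 0.69), Mfsd1 (0.89, within groups 0.52) and Herc3 (0.89, within groups 0.75). Nr1h4 was most like Rgl1 (0.97, within groups 0.69), Larp4b (0.97, within groups 0.77) and Aacs (0.95, within groups 0.69).

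Bcl6 had no gene above Sumo3 (0.85, within groups 0.66), followed by Cdk2ap1 (0.83, within groups 0.52) and Adipor2 (0.83, within groups 0.51). Pax2 was most like Cpne2 (0.87, within groups 0.78), Slc7a6 (0.86, within groups 0.74) and Tbx3 (0.86, within groups 0.72). Pax8 was nearest to Leo1 (0.88, within groups 0.52), P4ha2 (0.87, within groups 0.52) and Stip1 (0.86, within groups 0.43), and Tfap2b to Slit2 (0.94, within groups 0.60), Apln (0.94, within groups 0.38) and Tenm4 (0.93, within groups 0.47). These likenesses describe the libraries and were not tested. No member was the nearest gene of another: over the 24 libraries Hnf4a and Nr1h4 had r of 0.78 and Hnf4a and Tfap2b -0.84, which fell to -0.26 and 0.01 within groups.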

How the data were processed

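Kidney RNA, poly A selected, was sequenced in 24 libraries in 4 groups of 6, grouped by the labels. The deposited table's signal is gene counts that the authors divided by 1 size factor per library (0.828 to 1.28), as read from the values; all values above 0 were whole reads within 0.05 in each library, 31 to 39.3 M per library. Per the submitters' processing notes the tools were Subread 2.0.6 with featureCounts, Trim Galore 0.6.10 and DESeq2 1.28.1, and the build was GRCm39; annotation, strand and settings: not given in the sources used here. Symbols and exon lengths came from GENCODE annotation of GRCm38 (52073 of 56748 identifiers named, with 99.2% of the signal).

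Genes with a mean of at least 10 were tested on log2(normalized count + 1), so folds of low genes are understated, with limma 3.58.1 in R 4.3.3 (trended, robust prior, all 24 libraries, 20 residual degrees of freedom, 5 contrasts, Benjamini-Hochberg per contrast, called under 0.05). Named genes were the members, the 3 genes most like each, and per list up to 3 genes with the smallest p in the comparison described plus direct partners of a member; others are said to be named after their values were seen. Some genes named by it are not reported here. Members and lists were chosen with earlier results of these data known. As alternatives, edgeR 4.0.16 and DESeq2 1.42.0 were run on the recovered reads (edgeR called 2673 genes by period in males and 2642 in females), with other pseudocounts, filters, scalings, priors, libraries and a replicate block. Simulated data with known changes were used to test the fit.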

Additional observations from a re-analysis of the deposited data

How the results depend on the processing

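The 35 member results (7 genes, 5 comparisons) were recomputed under each alternative, giving 1204 values, of which 1167 kept the direction and the side of the threshold, 25 lost the call, 6 gained it and 6 reversed. The reversals were, with equal totals, Hnf4a by period in females (-0.008) and Pax8 by sex in the active (-0.141) and inactive (-0.042) periods, and Pax2 by period in females (0.003 and 0.008 with active replicates 26 and 29 left out, 0.013 with inactive replicate 34; range -0.084 to 0.013 over all left-out libraries). In males by period, Hnf4g lost its call with no filter (adjusted p = 0.0582), with the 2 groups alone (0.0619) and with library weights (0.0633), and Bcl6 with no filter (0.0526) and the 2 groups alone (0.0912). By sex in the inactive period, Hnf4g (0.0674) and Pax8 (0.06) lost theirs with the upper quartile. Causes were not tested. With 1 library left out, members called numbered 4 to 6 by period in males, 3 in females, 0 in the interaction, 5 to 6 by sex in the active and 6 to 7 in the inactive period. Over all genes the same analyses called 2066 to 2782 by period in females. By sex they called 9993 to 10549 in the active and 9106 to 9823 in the inactive period, beside 17333 genes tested in the main fit. The ranges for males by period and for the interaction are given below.

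Over all genes, the interaction called 470, 247 with no filter, 937 with DESeq2, 537 with edgeR and 276 to 780 with a library left out; the period in males called 2665, 1756 with the 2 groups alone and 1835 to 3274 with a library left out. The share of period calls that were higher in the active group was 54.8% in males and 53.3% in females, and 43.7% and 39.4% with equal totals. Deviations of same-numbered male and female libraries had r from -0.1 to 0.12 over 12 pairs. Of the 12, 5 were nearest their own number, namely 26, 28, 29 and 30 in the active and 34 in the inactive period. Whether a shared number marks a pairing or a batch was not tested. With a replicate block 10297 genes were called by sex in the active period, 9448 in the inactive period and 531 in the interaction, and 6, 6 and 0 members. No paired analysis was possible for the periods because active and inactive libraries share no numbers.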
